A study of Homo sapiens with 32 samples.

Results

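FHIT, WWOX, MACROD2, IMMP2L, LRP1B, CNTNAP2, DLG2 and NAALADL2 are 8 very long protein-coding genes that lie in or near common fragile sites. They were taken by name, with their gene bodies from GENCODE release 44 on GRCh38, out of 19970 protein-coding genes on chromosomes 1 to 22 and X. The rule that defines them uses no measured value, but they were picked with earlier results of these data known. The readout was U-DNA-Seq, in which fragmented genomic DNA is enriched with a catalytically inactive uracil-DNA glycosylase that binds uracil, and the enriched sample is sequenced beside its input. The authors deposited, for each library, the genomic regions in which the log2 ratio of enriched over input coverage stayed above a cut-off. For each gene, the covered share (the percentage of its known bases inside such regions), the number of regions that touch it and the log2 value of the regions were measured in all 15 libraries that have a region file of their own.

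HCT116 is a colorectal carcinoma line without working mismatch repair (MMR), and K562 is a chronic myeloid leukaemia line. WT HCT116 cells carried no transgene. All other HCT116 cells expressed UGI, a peptide inhibitor of the uracil-DNA glycosylase UNG, from a retroviral construct that also carries EGFP, and had been sorted for that fluorescence. NT_UGI cells received no drug, 5FdUR_UGI cells received 20 µM 5-fluorodeoxyuridine and RTX_UGI cells 100 nM raltitrexed, each for 48 h. The suffix _MMR marks the MMR proficient cells, which had received an additional chromosome 3. FHIT and NAALADL2 themselves lie on chromosome 3, so in these cells an added copy and restored MMR cannot be told apart for these genes. There were 2 libraries for each of the 7 HCT116 conditions, 6 non-treated and 8 drug-treated in all, and 1 for K562. The labels give the libraries replicate numbers only, and the study's methods call the replicates independent and biological.

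Common fragile sites are chromosomal loci that break or show gaps in metaphase when DNA replication is slowed, and they tend to sit in very long genes that replicate late and hold few replication origins. Both drugs deplete thymidylate by blocking thymidylate synthase, so that uracil replaces thymine in newly made DNA. FHIT, a nucleotide hydrolase, spans the most fragile site of lymphocytes, FRA3B, and WWOX, a WW-domain oxidoreductase, spans FRA16D. MACROD2 encodes a mono-ADP-ribosylhydrolase, IMMP2L a subunit of the mitochondrial inner membrane peptidase, LRP1B a giant LDL-receptor family member, CNTNAP2 a neurexin-family adhesion protein, DLG2 the postsynaptic scaffold PSD-93 and NAALADL2 a protein related to glutamate carboxypeptidases.

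The genes were between 900 and 2305 kb long. FHIT lies at chr3:59747277-61251459 on the minus strand, WWOX at chr16:78099400-79212667 on the plus strand, MACROD2 at chr20:13995369-16053197 on the plus strand and IMMP2L at chr7:110662644-111562517 on the minus strand. LRP1B lies at chr2:140231423-142131016 on the minus strand, CNTNAP2 at chr7:146116002-148420998 on the plus strand, DLG2 at chr11:83455012-85628335 on the minus strand and NAALADL2 at chr3:174438573-175810548 on the plus strand. LRP1B had the lowest GC content (34.8%) and WWOX the highest (42.6%). The order between them was NAALADL2 (35.2%), IMMP2L (36.1%), DLG2 (37.0%), CNTNAP2 (37.5%), MACROD2 (37.9%) and FHIT (38.9%).

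Some of the DNA behind the measurements is shown first. For LRP1B, WWOX, FHIT and CNTNAP2, the centre of the longest segment that all 6 non-treated libraries called is given. For FHIT and CNTNAP2 the centre of the longest segment called in the greatest number of drug-treated libraries follows (2 of them for FHIT and 3 for CNTNAP2, chosen after the values were seen), because both genes had their highest drug-treated share near their ends. Each window has 120 bases of the plus strand of GRCh38, none of the segments touched an exon of the longest protein-coding transcript, and capitals mark runs of at least 6 bases of A and T only.
LRP1B, chr2:141849741-141849860, all 6 non-treated: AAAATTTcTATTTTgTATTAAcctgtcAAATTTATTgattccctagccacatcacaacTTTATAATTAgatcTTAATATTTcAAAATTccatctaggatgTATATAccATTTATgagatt
WWOX, chr16:79032441-79032560, all 6 non-treated: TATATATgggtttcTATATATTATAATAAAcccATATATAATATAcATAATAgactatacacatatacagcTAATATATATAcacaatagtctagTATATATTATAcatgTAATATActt
FHIT, chr3:60905541-60905660, all 6 non-treated: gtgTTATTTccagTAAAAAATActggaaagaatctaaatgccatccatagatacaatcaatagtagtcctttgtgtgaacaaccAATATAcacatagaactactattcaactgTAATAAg
FHIT, chr3:59802091-59802210, drug-treated: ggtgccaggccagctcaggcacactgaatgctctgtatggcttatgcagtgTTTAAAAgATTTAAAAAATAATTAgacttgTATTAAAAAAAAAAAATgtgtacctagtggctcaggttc
CNTNAP2, chr7:146150191-146150310, all 6 non-treated: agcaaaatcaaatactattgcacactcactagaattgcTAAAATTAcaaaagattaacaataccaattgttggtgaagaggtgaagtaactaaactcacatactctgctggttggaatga
CNTNAP2, chr7:148330691-148330810, drug-treated: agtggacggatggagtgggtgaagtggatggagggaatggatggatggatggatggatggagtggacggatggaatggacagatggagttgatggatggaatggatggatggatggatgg
Of the windows from non-treated cells, 54.2% of the bases stood in such runs for LRP1B, 58.3% for WWOX, 22.5% for FHIT and 6.67% for CNTNAP2, where 21.7% of the whole of LRP1B, 15.8% of FHIT and 18.5% of CNTNAP2 did. The CNTNAP2 window was thus below its gene, although the segment around it was at 25.02%. The drug-treated CNTNAP2 segment held no such run, and its window held 13 copies of GGAT. The drug-treated FHIT window had 33.3% of its bases in runs, above the whole gene, and the segment around it 11.6%, below the whole gene.

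Taken as one stretch of 13.3 Mb, the 8 genes were covered well above the genome in non-treated cells and far below it after either drug. Coverage was scaled within each library, so a covered share describes enrichment relative to the rest of that library's genome. By dot blot, the paper measured more genomic uracil in drug-treated UGI-expressing cells than in non-treated ones. A lower share after drug is therefore not a measured loss of uracil. In the 6 non-treated libraries the pooled covered share was 20.0% ± 0.912 (SD, n = 6), where chromosomes 1 to 22 and X were covered to 11.2% on average. In the 8 drug-treated libraries it was 1.51% ± 2.23 (SD, n = 8), where the same chromosomes were covered to between 17.2% and 19.1%. The K562 library resembled the non-treated cells, at 22.2% of the 8 genes against 11.1% of the genome. Between 1012 and 1195 regions touched any of the genes in a library without drug, and between 4 and 637 in a library with drug. Of the 64 pairs of a gene and a drug-treated library, 22 held no region at all, against 0 of the 48 pairs with a non-treated library.

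**Figure D1:**
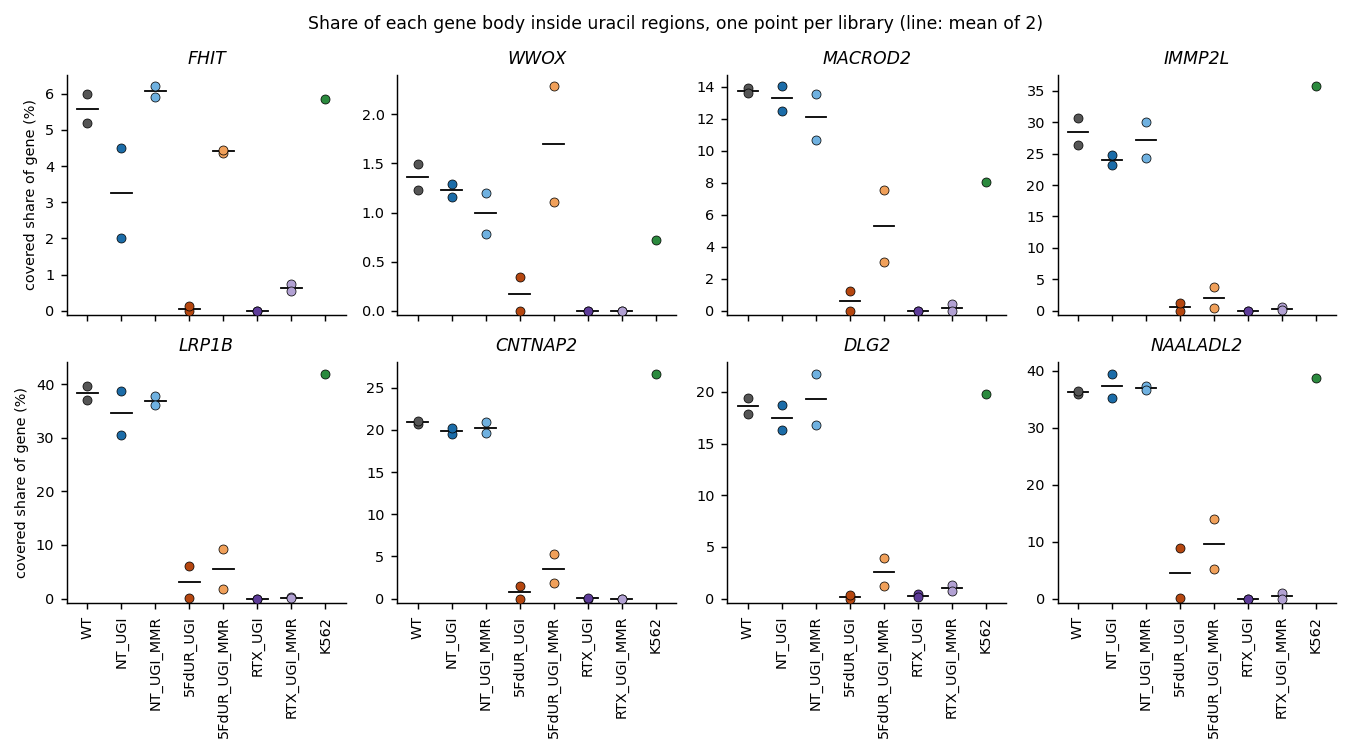
Covered share (percent of the gene body inside deposited regions, y axis from 0, own scale for each gene) in each of the 15 libraries, by condition, with a line at the mean of the 2 libraries of a condition. The non-treated libraries and K562 sit above the drug-treated ones for every gene but FHIT and WWOX, whose 5FdUR_UGI_MMR libraries reach non-treated levels.

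LRP1B and NAALADL2 had the highest covered shares in non-treated cells. The LRP1B shares were 39.6% and 37.1% in WT, 38.7% and 30.5% in NT_UGI, and 37.8% and 36.1% in NT_UGI_MMR. The drug-treated shares of LRP1B had a median of 0.184% and reached 9.19% in 5FdUR_UGI_MMR replicate 2. Every non-treated library thus lay above every drug-treated one. NAALADL2 ranged from 35.2% to 39.5% over the non-treated libraries, with a median of 36.5%. After drug treatment its shares had a median of 0.481%, with 0% in 3 of the RTX libraries and a highest value of 14.04%, again in 5FdUR_UGI_MMR replicate 2.

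IMMP2L, CNTNAP2 and DLG2 came next. IMMP2L was covered to 23.2% to 30.6% in the non-treated libraries (median 25.5%) and to 0% to 3.75% in the drug-treated ones (median 0.278%). CNTNAP2 lay at 19.5% to 21.1% without drug (median 20.5%), and its drug-treated shares ran from 0% to 5.25% with a median of 0.0217%. DLG2 ranged from 16.3% to 21.8% without drug and from 0% to 3.94% with drug. The groups did not overlap for any of these genes.

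MACROD2, FHIT and WWOX had the lowest shares without drug. MACROD2 was covered to 10.7% to 14.1% in non-treated and 0% to 7.52% in drug-treated libraries, without overlap. FHIT was covered to 5.98% and 5.19% in WT, 2.01% and 4.51% in NT_UGI, and 5.92% and 6.22% in NT_UGI_MMR. Its drug-treated shares were 0% and 0.12% in 5FdUR_UGI, 4.36% and 4.46% in 5FdUR_UGI_MMR, 0% in both RTX_UGI libraries, and 0.745% and 0.538% in RTX_UGI_MMR. The 5FdUR_UGI_MMR libraries of FHIT therefore lay inside the non-treated range. WWOX never exceeded 1.49% without drug, was at 0% in all 4 RTX libraries, and had its highest share of all, 2.29%, in 5FdUR_UGI_MMR replicate 2. Among neighbours in this order, the non-treated ranges of NAALADL2 and LRP1B, of LRP1B and IMMP2L, and of CNTNAP2 and DLG2 overlapped, and the ranges of the other neighbours did not overlap.

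The first comparison asked whether drug treatment moved the covered share of these genes. By a two-sided exact permutation test over the 3003 assignments of the 14 HCT116 libraries, with Benjamini-Hochberg adjustment over 14856 protein-coding genes of at least 10 kb, 7 of the 8 genes fell, where 10.5% of all genes tested fell and 41.7% rose. The mean difference was -34.4 percentage points for LRP1B, -33.2 for NAALADL2, -25.8 for IMMP2L, -19.3 for CNTNAP2, -17.5 for DLG2 and -11.5 for MACROD2, each with an adjusted p of 0.00361 from the exact test. This is based on the smallest p the design allows, 0.000333. FHIT differed by -3.70 points (adjusted p = 0.0177, exact test). WWOX differed by -0.726 points and did not pass (adjusted p = 0.088, exact test). Without 5FdUR_UGI_MMR replicate 2 its difference was -0.987 points with an adjusted p of 0.00795 in the exact test. FHIT did not pass when the WT libraries were left out (adjusted p = 0.0595) or when regions under 5 kb were left out (adjusted p = 0.244, both exact tests).

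All non-treated libraries lay above all drug-treated ones for 6 of the 8 genes, a pattern found in 6.5% of all genes tested. The number of regions gave a like picture. Per Mb of gene, 7 of the 8 genes had fewer regions after drug treatment by the same exact test, where 9.13% of all genes did. IMMP2L went from 121 ± 7.96 regions per Mb (SD, n = 6) to 5.56 ± 8.10 (n = 8), the largest difference of the 8 genes. WWOX went from 7.78 ± 2.82 to 4.38 ± 7.88 regions per Mb and did not pass (adjusted p = 0.443, exact test). With 4 drug-treated and 4 non-treated libraries of MMR deficient cells alone the exact test cannot go below 0.0286 and called 0 of the 14856 genes, and the differences of the 8 genes were still negative.

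Other long genes were measured the same way. Of the 314 other protein-coding genes of at least 500 kb, 57.0% fell and 7.96% rose by the exact test, with a median difference of -7.27 points against -18.4 for the 8 genes and 26.1 for all genes tested. The median non-treated share was 19.4% for the 8 genes and 10.7% for the other long genes. Among all 322 genes of that length, LRP1B ranked 41 and NAALADL2 ranked 38 by non-treated share, and FHIT and WWOX ranked 222 and 290. By drug-treated share the highest rank of the 8 genes was 147, held by NAALADL2, and the lowest 303, held by WWOX. A list of 17 other long genes in or near sites described as fragile, which was drawn up with earlier results of these data known, had 11 genes that fell and 0 that rose. Its lowest difference was that of NBEA (-40.5 points) and its highest that of RORA (3.56 points, adjusted p = 0.068 in the exact test).

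The effects of the drugs were then taken one by one against non-treated UGI-expressing cells, with limma on the arcsine of the square root of the share in 1 fit of the 14 libraries. After 5FdUR, 7 of the 8 genes fell, where 12.5% of all genes fell. LRP1B differed by -31.5 points (adjusted p = 0.000245, limma) and lay at 4.29% ± 4.15 (SD, n = 4) after the drug. WWOX did not pass (difference -0.175 points, adjusted p = 0.208, limma). After RTX all 8 genes fell, where 14.7% of all genes did, and the adjusted p in limma ranged from 7.35e-06 to 0.000279. The RTX libraries had almost no regions in these genes. Their mean share was 0.0855% for LRP1B, 0.0108% for CNTNAP2 and 0.233% for NAALADL2, and WWOX was empty in all of them. Of the 8 genes DLG2 alone had a region in all 4 RTX libraries, with a mean share of 0.65% ± 0.499 (SD, n = 4).

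Between the drugs, 6 genes were covered more after 5FdUR than after RTX by limma, where 23.8% of all genes were. They were NAALADL2 (6.78 points), LRP1B (4.21), MACROD2 (2.85), CNTNAP2 (2.13), FHIT (1.91) and WWOX (0.934), with adjusted p between 0.00228 and 0.0437 in limma. IMMP2L (1.18 points) and DLG2 (0.724 points) did not pass. With a log2 limit of 0.35 for regions 0 of the 8 genes passed and the difference of MACROD2 changed sign, and 1 gene passed with regions of at least 5 kb or on untransformed percent. Only FHIT and WWOX passed without RTX_UGI_MMR replicate 2, and only FHIT, WWOX and MACROD2 without 5FdUR_UGI_MMR replicate 2. The model assumes the same spread in every condition, while the 5FdUR replicates of LRP1B were at 0.0737% and 6.14% in MMR deficient cells.

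The MMR status was compared within each treatment. After 5FdUR, 3 genes were higher in MMR proficient cells by limma, where 11.8% of all genes were. FHIT was at 0.0598% in deficient and 4.41% in proficient cells (adjusted p = 0.00257), WWOX at 0.171% and 1.70% (adjusted p = 0.0126) and MACROD2 at 0.607% and 5.30% (adjusted p = 0.0399, limma). The call of MACROD2 was lost in 15 of 20 other settings, that of WWOX in 5 and that of FHIT in 1. Without 5FdUR_UGI replicate 1, or without 5FdUR_UGI_MMR replicate 2, 1 gene passed, and without 5FdUR_UGI replicate 2, 5 genes passed. After RTX none of the 8 genes passed in limma, where 3.36% of all genes were higher in MMR proficient cells. FHIT, the 1 gene of the 8 with an unadjusted p under 0.05 there (adjusted p = 0.155, limma), was at 0% in both deficient libraries against the values above in the proficient ones. Without drug none of the 8 genes passed in limma and 0 had an unadjusted p under 0.05, where 0.0202% of all genes were higher. None passed between UGI-expressing and WT cells, where 0% of all genes were higher and limma gave 202 of 14856 genes an unadjusted p under 0.05, none of them among the 8.

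Whether the 5FdUR effect itself differed with MMR status was tested as an interaction. None of the 8 genes passed in limma after adjustment, where 4.54% of all genes had a positive interaction. Unadjusted, 3 of them had a p under 0.05, with adjusted p in limma of 0.0614 for WWOX, 0.103 for FHIT and 0.139 for MACROD2. Without 5FdUR_UGI replicate 2, 4 genes passed, and without 5FdUR_UGI_MMR replicate 1, 1 gene passed. The same interaction for RTX was past the threshold for none of the 8 genes, adjusted or not, where it was positive in 0.35% of all genes by limma.

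The cut-off behind the regions differed between libraries. For the MMR deficient HCT116 cells, the paper tuned it so that replicates and merged data had regions of about equal total length. The share of the genome covered in a library thus depends on that choice. The lowest log2 value of any region was between 0.25 and 0.33 in the non-treated libraries and between 0.13 and 0.27 in the drug-treated ones. The libraries with the lowest cut-offs, 0.13 in 5FdUR_UGI_MMR replicate 2 and 0.14 in 5FdUR_UGI replicate 2, had larger shares than the other replicate of their condition for all 8 genes. The other pairs with unequal cut-offs were mixed. RTX_UGI_MMR replicate 2 had a lower cut-off than replicate 1, 0.25 against 0.27, and a lower or equal share in all 8 genes. WT replicate 2 (0.25 against 0.33) had the higher share of CNTNAP2, DLG2 and NAALADL2 and the lower share of the others, LRP1B among them. NT_UGI replicate 1 (0.29 against 0.32) had the higher share of all but FHIT, CNTNAP2 and DLG2. NT_UGI_MMR replicate 1 (0.29 against 0.32) had it for WWOX, LRP1B and NAALADL2 only. The part of the cut-off in these differences was not tested. When only regions with a log2 value from 0.35 upwards were kept, 8 of the 8 genes had lower shares after drug treatment by the exact test. That limit left between 8.46 and 452 Mb of regions in a drug-treated library, and between 177 and 315 Mb in a non-treated one. Over all genes it gave more falls than rises, unlike the main setting, with the counts in the section on processing. It took unequal parts from the libraries, so this count cannot separate the cut-off from the drug.

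The regions left in these genes after drug treatment also had lower log2 values, as did the cut-offs above. The mean log2 value over region bases lay between 0.33 and 0.47 for every gene in every non-treated library. In drug-treated libraries it lay between 0.15 and 0.38 with 1 exception. For LRP1B it was 0.43 ± 0.03 (SD, n = 6) without drug and 0.25 ± 0.04 in the 7 drug-treated libraries with a region. Over all regions of a library the mean was 0.37 to 0.46 without drug and 0.22 to 0.46 with drug.

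The exception was MACROD2 in RTX_UGI_MMR replicate 1, at 1.16. One region of 5.1 kb at chr20:15828001-15833100, in intron 8 of MACROD2 and without an exon, had a log2 value of 1.69. It was the highest of the 130511 regions of that library, where the next highest was 0.81. The files give the ratio without the coverage behind it, so whether few input reads there raised the value was not tested. In the other libraries, WT replicate 2 and 5FdUR_UGI_MMR replicate 1 had a region that overlapped it in part. It was picked after its value was seen, and the centre of the region is shown because no other member held a region as strong.
MACROD2, chr20:15830491-15830610, RTX_UGI_MMR replicate 1: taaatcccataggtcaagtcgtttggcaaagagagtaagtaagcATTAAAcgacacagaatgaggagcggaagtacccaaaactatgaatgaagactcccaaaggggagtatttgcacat
The region had a GC content of 39.2%, against 37.9% for the whole gene.

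The genes were not covered evenly along their length. Each was divided into 10 bins of equal length, numbered from its transcription start. In 55 of the 80 bins every non-treated library was above every drug-treated one, and in 0 bins the reverse held. Among the bins of the 314 other genes of at least 500 kb, 39.1% were of the first kind. All 10 bins of LRP1B and of NAALADL2 were of this kind, 8 of IMMP2L, CNTNAP2 and DLG2 each, 6 of MACROD2, 4 of FHIT and 1 of WWOX. The highest non-treated bin was bin 10 of LRP1B, at 59.9% ± 6.99 (SD, n = 6) and a GC content of 34.0%. In CNTNAP2 the share was 36.4% ± 3.59 in bin 4 and 0.499% ± 0.419 in bin 10. WWOX held a run of 339 kb, chr16:78513001-78852400, in which none of the 14 HCT116 libraries nor K562 had a region. The longest such run shared by the 14 HCT116 libraries was 52.4 kb in FHIT and 30.4 kb or less in the others. The paper's pipeline excluded blacklisted stretches, and the regions do not show whether a stretch was excluded or lacked input reads. Whether either holds for these empty runs was not tested.

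**Figure D2:**
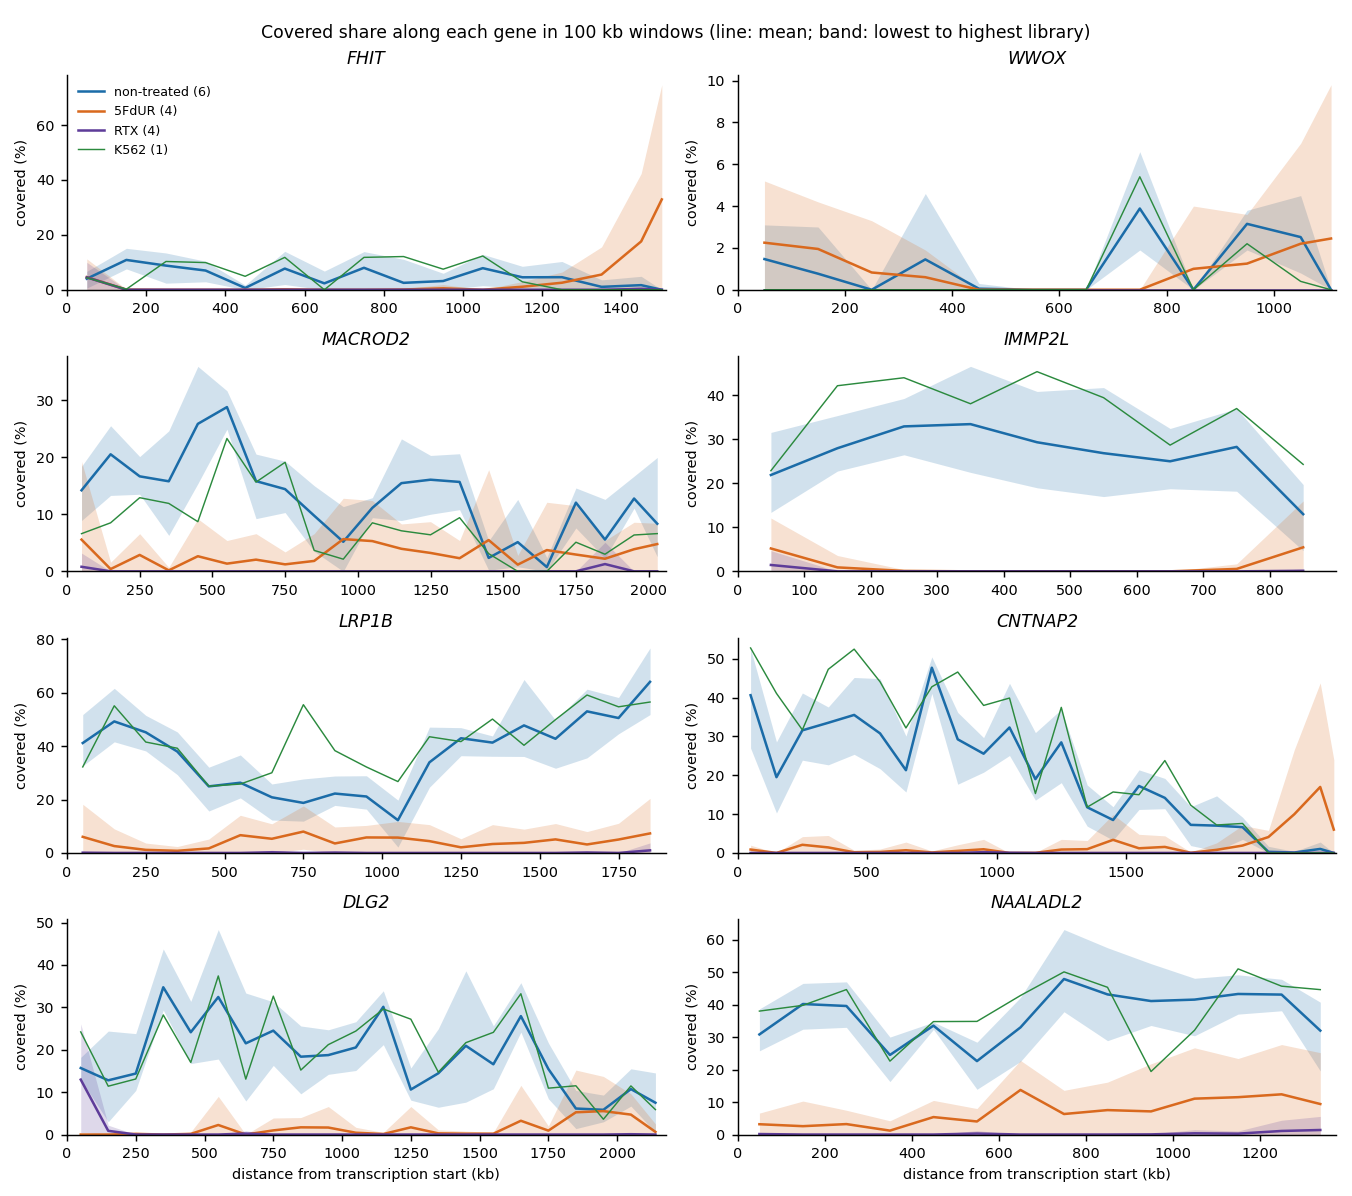
Covered share (y axis, percent, own scale for each gene) in 100 kb windows by distance from the transcription start (x axis, kb), as the mean of the 6 non-treated, 4 5FdUR and 4 RTX libraries with a band from the lowest to the highest, and K562 as a thin line. The 5FdUR line rises above the non-treated one at the ends of FHIT and CNTNAP2, and the RTX line leaves 0 most clearly at the start of DLG2.

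The largest drug-treated shares of FHIT and CNTNAP2 were in bin 10, and of DLG2 in bin 1. In bin 10 of FHIT the mean share of the 5FdUR_UGI_MMR libraries was 28.0%, with 0% in the 5FdUR_UGI and 0.199% in the RTX libraries, and 1.78% ± 1.33 (SD, n = 6) without drug. Bin 10 of CNTNAP2 had 23.9% in 5FdUR_UGI_MMR and 0% in the RTX libraries. Bin 1 of DLG2 was covered to 6.36% ± 4.84 (SD, n = 4) in the RTX libraries, between 1.24% and 12.5%, and to 0.069% in the 5FdUR libraries. In the 1 Mb downstream of CNTNAP2, where 10 protein-coding genes lie, the shares were 0.893% ± 0.494 without drug and 39.0% ± 15.7 (n = 8) with drug. Upstream of DLG2, with 11 protein-coding genes, they were 4.87% ± 0.968 and 32.8% ± 14.6. The 1 Mb upstream of CNTNAP2 holds no protein-coding gene and went the other way, with 30.4% ± 1.87 without drug and 0.615% ± 1.10 with drug. The GC content of these flanks was 44.4%, 40.3% and 36.1%, in the order given. Gene number and direction did not go together in all flanks of the 8 genes. Upstream of FHIT, with 1 protein-coding gene, the shares were 2.08% ± 0.814 without drug and 15.9% ± 7.11 with drug. Upstream of WWOX, with 6, they were 2.87% ± 0.348 and 3.46% ± 6.17. The bins and flanks of single genes were not tested.

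Few bases were shared between drug-treated libraries, which covered little of these genes. No base of the 8 genes was inside a region in more than 3 of the 8 drug-treated libraries, and no more than 2 in FHIT, WWOX and LRP1B. Low coverage limits such counts, as 5 of the 8 drug-treated libraries held no region in WWOX and 4 held none in MACROD2. In the non-treated libraries, which covered more of each gene on average, 8.94% of LRP1B, 7.61% of NAALADL2 and 0.126% of FHIT were inside a region in all 6. These values are not a like comparison of recurrence. Of the FHIT bases covered in 5FdUR_UGI_MMR replicate 1, 2.90% lay where any non-treated library had a region, below the 17.02% of the gene that any non-treated library covered. In LRP1B the same share was 61.1%, against 71.6% of the gene. Among all pairs of a gene and a drug-treated library with enough region bases for this value, only 3 went the other way. They were FHIT in RTX_UGI_MMR replicate 1 (40.2%), NAALADL2 in the same library (93.8% against 70.5% of the gene) and WWOX in 5FdUR_UGI_MMR replicate 2 (12.5% against 3.60%). These rest on 11.2, 12.8 and 25.5 kb of region bases. In the remaining pairs the share was below that of the gene.

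Base composition went along with the non-treated coverage. Over the 80 bins, the Pearson r between GC content and the mean share was -0.88 in non-treated and -0.13 in drug-treated libraries. Bins of one gene share its sequence and the libraries, so these are descriptions. Over the 322 genes of at least 500 kb, r was -0.77 in non-treated and 0.59 in drug-treated libraries. Over the 10 bins of a gene, r without drug lay between -0.92 and -0.66 for 7 genes and was 0.08 for WWOX. In CNTNAP2, region bases of the 6 non-treated libraries had a GC content of 34.2% ± 0.139 (SD, n = 6), and the rest of the gene 38.4%. In the 3 drug-treated libraries with enough region bases there, all of them 5FdUR libraries, the regions had 42.2% ± 1.87 and the rest 37.4%. FHIT had 35.5% ± 0.339 in regions without drug and 41.5% ± 0.356 in the regions of 2 drug-treated libraries, both 5FdUR_UGI_MMR. DLG2 was less uniform, with regions below the rest of the gene in 1 of the 3 drug-treated libraries with enough region bases.

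**Figure D3:**
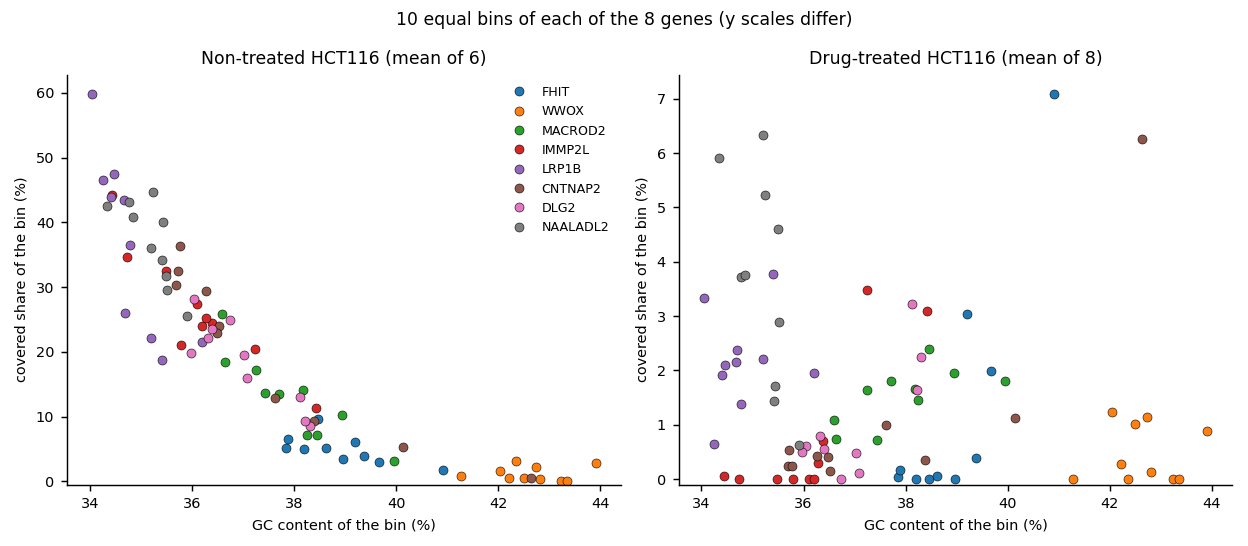
GC content (x axis, percent) and mean covered share (y axis, percent) of the 80 bins of the 8 genes in non-treated (left, 6 libraries) and drug-treated (right, 8 libraries) cells, coloured by gene, with different y scales. On the left the share declines from 59.9% at a GC content of 34.0% to near 0 in WWOX, and on the right no bin exceeds 7.09%.

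Exons, introns and promoters were then looked at apart. Of the 91 exons of LRP1B, 46 to 59 touched a region in the non-treated libraries and at most 7 in the drug-treated ones. The longest introns of FHIT (intron 5, 523 kb), CNTNAP2 (intron 1, 657 kb) and DLG2 (intron 4, 620 kb) were covered to 5.22% ± 2.41, 32.1% ± 2.25 and 23.6% ± 3.38 without drug (SD, n = 6). The rest of these genes was at 4.84% ± 1.34, 15.7% ± 1.41 and 16.5% ± 1.74. The longest intron of IMMP2L was also above the rest of its gene, at 30.4% against 21.2%. It was below the rest in LRP1B (29.5% against 38.1%), NAALADL2 (30.6% against 38.1%) and MACROD2 (11.6% against 13.6%). RefSeq promoter windows of 300 bases matched 7 of the genes, with 17 windows on GRCh38. A region touched 3 of them in any non-treated library, 5 in any drug-treated library and 0 in K562, and no window was touched in more than 1 drug-treated library. The 3 windows touched without drug, of MACROD2, DLG2 and NAALADL2, were touched in 2, 4 and 5 of the 6 non-treated libraries. No count over the promoters of other genes stands beside these. The windows of WWOX (GC content 69.0%) and CNTNAP2 (61.7%) were outside all regions.

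K562 was above the range of the 6 non-treated HCT116 libraries for IMMP2L (35.8%), LRP1B (42.0%) and CNTNAP2 (26.7%). It was below it for WWOX (0.719%) and MACROD2 (8.03%), and inside it for FHIT (5.86%), DLG2 (19.8%) and NAALADL2 (38.7%). With 1 library there was no test. Most K562 bases lay where a non-treated HCT116 library had a region too, from 60.5% in FHIT to 93.2% in NAALADL2 of the bases covered in K562.

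For each gene, the gene of at least 100 kb and more than 2 Mb away whose covered share had the highest Pearson r with it over the 15 libraries was named. These were TMPRSS15 for LRP1B (r = 0.998), GNGT1 for DLG2 (0.998), PRKG1 for CNTNAP2 (0.997), MGAT4C for NAALADL2 (0.996), RUNX1T1 for IMMP2L (0.995), HS6ST3 for MACROD2 (0.985), COL6A5 for WWOX (0.965) and SYBU for FHIT (0.955). Such an r does not compare levels. The mean non-treated share was 37.8% for TMPRSS15 and 36.6% for LRP1B, but 32.8% for GNGT1 and 18.5% for DLG2. Between the 8 genes themselves, r over the 15 libraries ran from 0.49 for WWOX and IMMP2L to 0.99 for IMMP2L and CNTNAP2. The libraries are shared by all these values, and most of the spread lies between drug-treated and other libraries.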

How the data were processed

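Genomic DNA of 15 enriched libraries, each with its input, was sequenced by the authors. Per the labels and the study's methods, reads were aligned to GRCh38 with BWA 0.7.17-r1194, sorted with SAMtools 1.9-50, marked for duplicates with Picard, and turned into coverage in bins of 100 bp with smoothing over 5000 bp by deepTools 3.2.1. The authors deposited regions above a log2 cut-off of enriched over input coverage, with the cut-off set for each library, and each region's mean log2 value. The study reports read numbers for some libraries, which are not used here, and the deposited files hold no counts, so no counting interval is given. Regions off chromosomes 1 to 22 and X, 0.0797% to 0.365% of region bases, were left out. Region files merged over replicates served as an alternative only.

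Covered share and region number were computed in Python 3.11.15 with NumPy 2.4.6 and pandas 2.3.3, on gene bodies of GENCODE release 44, over 14856 protein-coding genes of at least 10 kb. Libraries with and without drug were set against each other by exact permutation, and single conditions with limma 3.58.1 in R 4.3.3 (trend, arcsine of the square root of the share), both adjusted by Benjamini-Hochberg and called at 0.05. Both were tested on simulated data. Alternatives were relative coverage (the share over that of the genome), regions of a log2 value of at least 0.35, regions of at least 5 kb, all protein-coding genes, a replicate block, untransformed shares, merged files, UGI-expressing or MMR deficient cells only, and leaving out each of 14 libraries. The genes named are the 8 members, the highest and lowest of the listed fragile site genes, and the most correlated gene of each member. The members and lists were chosen with earlier results of these data known, and the segments of drug-treated libraries shown are those called in most of them, since none was called in 6 or more. The main tests did not pair libraries by replicate number. Input and mock samples have no region files among those used here. Introns and exons are those of the longest protein-coding transcript of each gene.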

Additional observations from a re-analysis of the deposited data

Results flagged for a closer look

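In 4 of 16 sets of libraries (8 genes, non-treated or drug-treated), 1 library stood apart from the others of its set by Dixon's test. It was 5FdUR_UGI_MMR replicate 2 among the 8 drug-treated libraries each time, with covered shares of 7.52% for MACROD2, 3.75% for IMMP2L, 5.25% for CNTNAP2 and 3.94% for DLG2. Chance marks about 1 in 20 sets when the values are normally distributed. Several drug-treated shares were at the floor, so that rate may not hold here, and the 4 values come from 1 library. The drug-treated sets also mix both drugs and both MMR states, so differences between conditions can set a library apart. That library had the lowest log2 cut-off of all, 0.13, and its part in the values was not tested.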

How the results depend on the processing

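For drug-treated against non-treated libraries, between 6 and 8 of the 8 genes were called, lower in each case, for covered share under relative coverage, a log2 limit of 0.35, regions of at least 5 kb, all protein-coding genes, the replicate block (7) and UGI-expressing cells only, and between 7 and 8 when any library was left out. The same ranges held for region number under the settings that apply to it. With merged files (4 against 3) or MMR deficient cells only (4 against 4), 0 genes were called for both measures, since these designs cannot go below an unadjusted p of 0.0286. Over all genes, 1554 fell and 6188 rose in covered share, against 872 and 1741 with regions of at least 5 kb, 1916 and 375 with a log2 limit of 0.35, and 1327 and 2305 in UGI-expressing cells. For region number the counts were 1356 and 5551, against 821 and 1862, 2119 and 369, and 952 and 1587.

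In limma, 5FdUR against non-treated UGI gave 6 to 8 genes and RTX against non-treated UGI 7 to 8 under all settings run. For 5FdUR against RTX the count of 6 became 0 with a log2 limit of 0.35, 1 with regions of at least 5 kb and 1 on untransformed percent, and 2 to 6 when a library was left out. MACROD2 reversed there with the log2 limit of 0.35, to -0.0125 on the arcsine scale. The cause of these changes was not tested. For MMR proficient against deficient after 5FdUR the count of 3 became 0, 1 and 1 under the same settings, and 1 to 5 when a library was left out. The 5FdUR interaction with MMR status went from 0 genes to 1 with all protein-coding genes, and 0 to 4 when a library was left out. A left-out library leaves a lone one that is assumed to vary like the other conditions. The other comparisons by MMR status, the RTX interaction and UGI against no transgene stayed at 0 genes under all settings run. Over all genes, with regions of at least 5 kb, the lower calls went from 1850 to 1049 for 5FdUR and from 2182 to 1160 for RTX against non-treated UGI. Higher calls went from 3542 to 2317 for 5FdUR against RTX and from 1746 to 910 for MMR status after 5FdUR with that setting, and to 446 and 12 with a log2 limit of 0.35. Higher calls of the 5FdUR interaction went from 674 to 15 with that limit, those of MMR status after RTX from 499 to 277 under relative coverage and 759 on untransformed percent, and those of the RTX interaction from 52 to between 30 and 192.

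As to pairing, same-numbered replicates of different conditions had correlations of their deviations between -0.238 and 0.143 across genes, over 0.1 in 2 of 21 pairs of conditions. Between drug-treated conditions the values were 0.131, -0.113, -0.238, -0.158, -0.121 and 0.143, and in the other pairs they lay between -0.0302 and 0.0189. With 2 libraries in each condition, swapping the numbers within a condition changes only the sign. The replicate number thus did not mark a pairing throughout. The values between drug-treated conditions, the lowest of them between 5FdUR_UGI and RTX_UGI_MMR, leave room for structure that the numbers do not follow. Per the study's methods, libraries were sequenced at BGI or at Novogene on different instruments, and a batch of that kind was not tested. With the replicate block limma gave 7 genes for 5FdUR and 8 for RTX against non-treated UGI, 5 for 5FdUR against RTX, 2 for MMR status after 5FdUR, and 0 for the others. The region files carry no depth, and what depth limits was not measured here.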
